A study of Mus musculus with 76 samples.

Results

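Among the patched neurons of this series, 5 wild-type cells carry a contamination mark in the labels: 4 from male and 1 from female mice. They were chosen by that label alone and set against the 28 wild-type cells without the mark that the authors kept (19 male, 9 female), out of 76 labelled cells in all, of which 67 were kept. Each cell is a Patch-seq library: its contents were drawn into a patch pipette in an acute brain slice and sequenced. All 33 cells were TdTomato-positive interneurons of the dorsal CA1 pyramidal layer at postnatal day 4, untreated, from GPHN WT pups that carried Nkx2.1-Cre and the Ai14 tdTomato reporter. The Cre labels cells born in the medial ganglionic eminence (MGE), where parvalbumin and somatostatin interneurons arise in the embryo, and reports lineage rather than present Nkx2-1 expression. The series compares these mice with GPHNS268/270A mutant mice, whose 34 kept unmarked cells enter only an alternative here. GPHN is gephyrin, the scaffold protein of inhibitory synapses. What the contamination mark was based on is not given in the sources used here, so it may rest on these same transcripts, and the gene differences below are descriptions.

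Microglia are the resident macrophages of the brain. They depend on the receptor Csf1r and the transcription factor PU.1 (Spi1), make the C1q complement subunits, clear debris through lysosomes, and answer Toll-like receptor ligands or injury with cytokines, chemokines and type I interferon. Around birth they lie among the migrating and maturing neurons of the hippocampus.

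The contaminated cells held 6067674 to 11445372 counts (median 7305619) and the unmarked cells 3543753 to 10359434 (median 6450036). Genes with at least 1 count numbered 12281 to 16418 (median 13175) in contaminated cells and 10081 to 13663 (median 11620.5) in unmarked cells. A level is given as CPM, the gene's count divided by the total count of its cell and scaled to counts per 1e+06, and a cell is said to carry a gene at 10 CPM or more. The labels name no animal, so cells of a group may share one and each group is 1 sample: no test between the groups was made and no p-value is given. The ratio used throughout is log2 of mean CPM plus 1 in contaminated cells over mean CPM plus 1 in unmarked cells, for 11388 genes at 10 CPM in 3 or more of the 33 cells. The median ratio over all these genes was -0.36, and 38.9% of genes lay above 0. The 5 contaminated cells alone can meet this filter, as for Tlr2, which 0 of 28 unmarked cells carried. A gene that unmarked cells lack passes only if it is high in contaminated cells. Counts of higher calls among list members that passed are therefore partly fixed by the filter.

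The marker transcripts differed in both directions. By GENCODE M21 on GRCm38 these protein-coding genes span chr4:136880129-136886187 (C1qb), chr3:83836272-83841767 (Tlr2), chr7:19696109-19699188 (Apoe), chr2:36081953-36105408 (Lhx6) and chr2:70553072-70602014 (Gad1). C1qb, the B chain of complement C1q, stood at 2481, 2605, 2125 and 3325 CPM in contaminated male cells 1 to 4 and at 708 CPM in the contaminated female cell, against 0 to 356 CPM (median 1.76) in unmarked cells. The ranges did not overlap, and the log2 ratio was 6.61, or 7.72 without unmarked WT male cell 6, which held the 356 CPM. Csf1r, the receptor that microglia need to survive, had 745, 1700, 2155, 1995 and 303 CPM in the same order, against 0 to 89.3 CPM (median 1.38) in unmarked cells. Its log2 ratio was 7.27, or 7.87 without WT male cell 10. Tlr2, a receptor for bacterial lipoproteins, had 1239, 426, 367, 993 and 367 CPM in contaminated cells, against 0 to 3.75 CPM (median 0.559) in unmarked cells. All 5 contaminated cells and 0 of 28 unmarked cells carried Tlr2; by counting error alone, and with cells taken as independent, 0 of 28 allows a share of up to 12.3% (Clopper-Pearson 95% interval).

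Apoe, a lipid carrier made by both microglia and astrocytes, overlapped between the groups. It stood at 60658, 6454, 7830, 5169 and 1472 CPM in contaminated cells and at 1.45 to 5539 CPM (median 213) in unmarked cells. The log2 ratio of 4.75 was 3.11 without contaminated male cell 1. Lhx6, a transcription factor required for interneurons of MGE origin, had 3.58, 182, 7.13 and 102.6 CPM in the male and 2.92 CPM in the female contaminated cells, against 2.55 to 1628 CPM (median 373) in unmarked cells. Contaminated male cells 2 and 4 carried it and the other 3 did not, against 26 of 28 unmarked cells that did. The log2 ratio was -2.91, or -3.92 without contaminated male cell 2. Gad1, which makes GABA, had 108.7, 160, 8.76, 68.9 and 97.5 CPM in contaminated cells, all below the unmarked median of 473 CPM (range 7.1 to 1382). It was carried by 4 of 5 contaminated cells and 26 of 28 unmarked cells, with a log2 ratio of -2.57. Summed over each group, C1qb made up 2085 CPM of the contaminated libraries (exact Poisson 95% interval 2070 to 2099) and 18.1 CPM of the unmarked ones (17.4 to 18.7), and Lhx6 50.3 CPM (48.1 to 52.5) and 477 CPM (474 to 481). These intervals cover counting error only, since PCR copies were not told apart by molecular identifiers and several reads can stem from a single molecule.

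**Figure D1:**
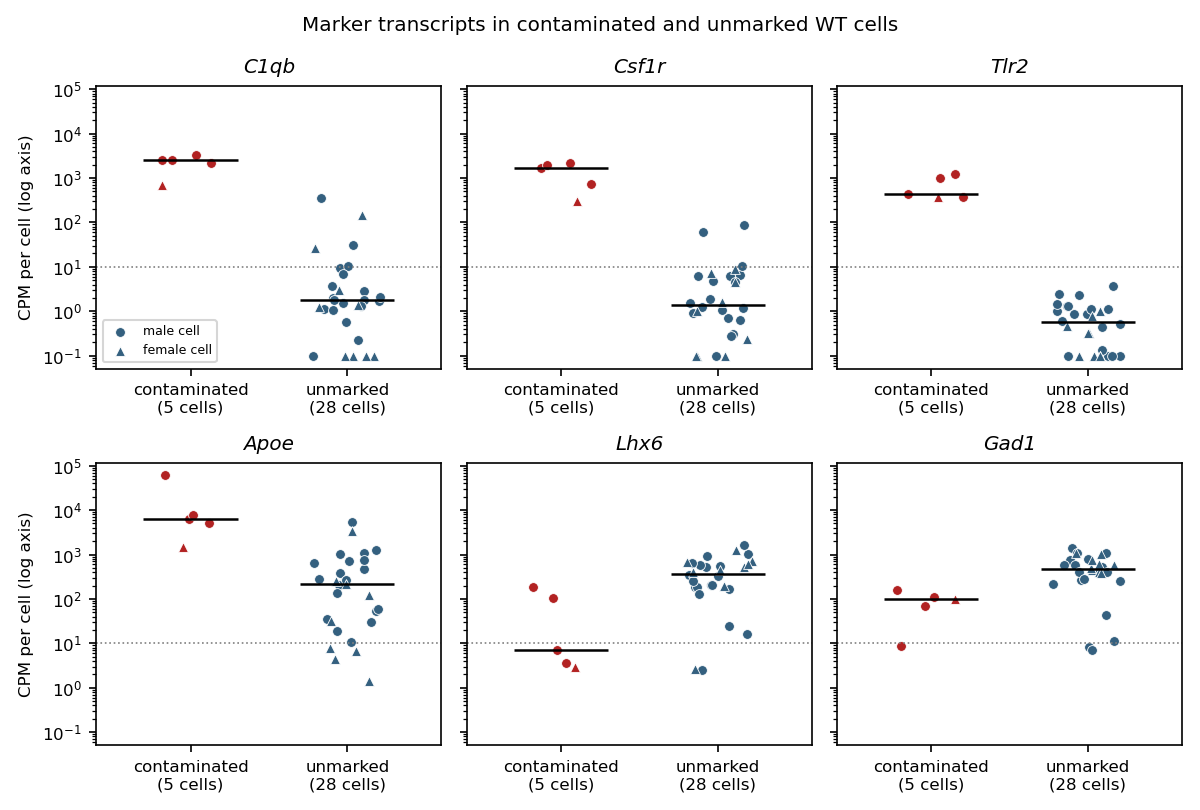
CPM per cell on a log axis for the 6 marker transcripts in 5 contaminated and 28 unmarked WT cells; circles are male and triangles female cells, black lines are group medians, the dotted line is 10 CPM, and values under 0.1 are drawn at 0.1. C1qb, Csf1r and Tlr2 do not overlap between the groups, Apoe, Lhx6 and Gad1 do, and the contaminated female cell is the lowest contaminated cell for C1qb, Csf1r, Apoe and Lhx6.

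Over all 11388 genes, 968 (8.5%) had a log2 ratio of 2 or more, a 4-fold higher mean in contaminated cells, and 1332 (11.7%) had one of -2 or less. This split depended on the scaling: TMM, which scales each cell by a trimmed mean of gene ratios, gave 791 higher and 2293 lower genes, and median-of-ratios scaling gave 354 and 5111, with the median of all genes at -0.86 and -2.07. For 86 genes (0.755%) every contaminated cell lay above every unmarked cell, and for 0 genes (0%) every contaminated cell lay below. Without the contaminated female cell the 86 became 199. Of the 86 genes, 26 belong to the 8 immune lists described next and 59 to no list.

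The microglia list of 27 transcripts was higher in contaminated cells almost throughout. Of the 27, all passed the filter, 26 had a log2 ratio of 2 or more, 0 had one of -2 or less, and 11 did not overlap between the groups. The median log2 ratio was 5.50, against -0.36 for all genes, and 6.09 without unmarked WT male cell 10. The list summed to 19774, 18462, 18234 and 22089 CPM in the contaminated male cells and to 5809 CPM in the contaminated female cell, against 4.79 to 2125 CPM (median 49.4) in unmarked cells. Fcrls, a receptor used as a microglial marker, had 1039, 1293, 1241, 1218 and 445 CPM in contaminated cells and at most 224 CPM in unmarked cells. Spi1, which encodes PU.1, had 285, 832, 709, 814 and 434 CPM in contaminated cells and at most 262 CPM in unmarked cells. P2ry12, an ADP receptor of homeostatic microglia, ran unevenly at 25.2, 1007, 901, 120 and 179 CPM, against at most 51.5 CPM in unmarked cells. Tmem119, another homeostatic marker, was at 0 in contaminated male cells 1 and 2 and at 115.9, 116.1 and 115.2 CPM in the other 3, against at most 0.26 CPM in unmarked cells. Sall1, a transcription factor of microglial identity, was the member short of 2, with 21, 19.9, 0.137, 0 and 0 CPM in contaminated cells and a single high value of 110.7 CPM among unmarked cells. The female cell held the lowest contaminated value for 19 of the 27 members. C1qb took 12.5, 14.1, 11.7, 15.1 and 12.2% of the list's summed level in contaminated cells, a narrow range, and Csf1r a wider 3.77, 9.21, 11.8, 9.03 and 5.21%.

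The upstream promoter sequence of C1qb is shown with those of Tlr2 and Il1a, which also did not overlap between the groups, and of Lhx6, the lower marker, because GAGGAA is the core bound by PU.1. Each line gives the 250 bases before the transcription start in RefSeq GRCm38.p6, 5′ to 3′ on the gene's strand, with GAGGAA in capitals. All 4 genes lie on the minus strand, with windows at chr4:136886201-136886450 (C1qb), chr3:83841609-83841858 (Tlr2), chr2:129309973-129310222 (Il1a) and chr2:36105409-36105658 (Lhx6). By the GENCODE span given above, Tlr2 starts inside its RefSeq window, so part of that window falls within the gene.
C1qb: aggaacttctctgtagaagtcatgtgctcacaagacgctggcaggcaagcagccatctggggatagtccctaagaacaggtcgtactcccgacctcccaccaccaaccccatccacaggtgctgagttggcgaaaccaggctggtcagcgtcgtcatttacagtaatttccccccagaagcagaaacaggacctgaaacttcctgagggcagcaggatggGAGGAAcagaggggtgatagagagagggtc
Tlr2: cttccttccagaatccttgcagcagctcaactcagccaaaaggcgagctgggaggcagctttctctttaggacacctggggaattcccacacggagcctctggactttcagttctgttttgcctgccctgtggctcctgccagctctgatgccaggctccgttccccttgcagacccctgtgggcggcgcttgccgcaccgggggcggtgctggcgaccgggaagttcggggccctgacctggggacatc
Il1a: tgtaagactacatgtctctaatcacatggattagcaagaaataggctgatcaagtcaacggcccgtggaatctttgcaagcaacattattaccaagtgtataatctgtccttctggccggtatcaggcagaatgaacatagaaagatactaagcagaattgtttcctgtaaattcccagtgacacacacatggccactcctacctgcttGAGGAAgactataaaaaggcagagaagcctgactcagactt
Lhx6: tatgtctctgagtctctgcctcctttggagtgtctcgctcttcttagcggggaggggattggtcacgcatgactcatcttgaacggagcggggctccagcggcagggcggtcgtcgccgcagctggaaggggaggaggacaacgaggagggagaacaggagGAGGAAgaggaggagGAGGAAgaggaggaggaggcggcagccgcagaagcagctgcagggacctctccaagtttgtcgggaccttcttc
C1qb held GAGGAA once, starting at -30 from the transcription start, Il1a once at -41, and Lhx6 at -89 and -74 inside a purine repeat, while the Tlr2 window held none. GAGGAA was searched on both strands, as GAGGAA and TTCCTC. Of the 19 microglia list members with a window, 11 held it (57.9%), against 5 of 15 cytokine and chemokine members (33.3%), 4 of 19 MGE members (21.1%), 2 of 12 pan-neuronal members (16.7%), 1954 of 8801 counted genes (22.2%) and 6252 of all 27025 windows (23.1%). A match describes the letters in these windows and says nothing of binding.

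Complement and Fc receptor genes followed the C1q subunits. Of 15 listed, 10 passed the filter, which the contaminated cells alone can meet, 10 were called higher and 5 did not overlap. The median log2 ratio was 5.36 (6.25 without unmarked WT male cell 10, and 4.96 without the filter). The list shares C1qa, C1qb, C1qc, Fcer1g and Itgam with the microglia list. C3ar1, the receptor for complement fragment C3a, stood at 435, 575, 433, 683 and 385 CPM in contaminated cells, against at most 19.7 CPM in unmarked cells. C5ar1, the receptor for C5a, had 534, 281, 325, 816 and 419 CPM, against at most 211 CPM. Fcgr3, a low-affinity receptor for IgG, had 188, 180, 346, 269 and 135 CPM, against at most 15.1 CPM. For C5ar1 the contaminated female cell lay above male cells 2 and 3, and for C3ar1 and Fcgr3 it was the lowest of the 5.

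Cytokine and chemokine transcripts summed to more than the microglia list in every contaminated cell. Of 22 listed, 18 passed the filter, 17 were called higher, 0 lower, and 5 did not overlap. The median log2 ratio was 5.85 (6.60 without unmarked WT male cell 6, and 5.57 without the filter). They summed to 35145, 33711, 28955 and 65307 CPM in the male and 11701 CPM in the female contaminated cells, against 0.386 to 6981 CPM (median 55.6) in unmarked cells. Together the microglia and cytokine lists took 5.49, 5.22, 4.72, 8.74 and 1.75% of the counts of the contaminated cells, against at most 0.911% in an unmarked cell.

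Ccl4, a chemokine that draws immune cells, had 13557, 17313, 12106, 32346 and 3302 CPM in contaminated cells, and 0 to 3768 CPM (median 16.5) in unmarked cells. Ccl3, a related chemokine, had 5249, 7547, 6962, 14215 and 1528 CPM, against 0 to 1579 CPM (median 5.12). In both, the 4 male cells lay above all unmarked cells and the female cell just inside their range. On the length-scaled TPM of the authors, Ccl4 averaged 38788 in contaminated and 829 in unmarked cells, and Ccl3 14113 and 334, so that among the genes described here Ccl4 exceeded Apoe (21983 and 942 TPM) in contaminated cells. Il1a, which encodes interleukin 1 alpha, did not overlap, with 4661, 2380, 2666, 6470 and 4369 CPM in contaminated cells and 0 to 804 CPM (median 5.72) in unmarked cells. Its log2 ratio was 6.54, or 8.01 without unmarked WT female cell 6. Il1a in the contaminated female cell lay within the range of the male cells.

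Ccl2, Ccl5, Ccl6 and Cxcl16 completed the chemokines without overlap. Ccl5, which draws T cells and macrophages, had 756, 1001, 516, 3809 and 188 CPM in contaminated cells, against at most 176 CPM in unmarked cells. Cxcl16, a membrane-bound chemokine, had 193, 492, 232, 578 and 83.6 CPM, against at most 1.77 CPM. Tnf, which encodes tumour necrosis factor, overlapped, with 1634, 517, 1360, 904 and 320 CPM in contaminated cells and at most 425 CPM in unmarked cells. Il1b, which encodes interleukin 1 beta, was uneven, with 259, 59.5, 0.137, 295 and 609 CPM, against at most 1.62 CPM. It was under 1 CPM in contaminated male cell 3 and highest in the female cell, and its log2 ratio of 7.47 was 6.80 without that cell. Il6, Il10, Nos2 and Tgfb1 did not pass the filter, and none of them was carried by more than 2 contaminated cells.

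The Toll-like receptor list was only partly detected. Of 20 listed, 9 passed the filter and 9 were called higher, 3 of them without overlap, with a median log2 ratio of 4.57. That median was 0.79 for the female cell alone, 2.96 with the members that did not pass included, 2.93 under median-of-ratios scaling, and 6.34 and 2.81 with pseudocounts of 0.1 and 10 CPM. Tlr4, the lipopolysaccharide receptor, reached 3.29 CPM in contaminated male cell 2 and was at 0 in the other contaminated cells. Its partner Cd14 had 2532, 1098, 1917, 3230 and 296 CPM in contaminated cells, against at most 346 CPM in unmarked cells (log2 ratio 6.90, or 9.27 without WT male cell 10). Nfkbia, the inhibitor that NF-kB induces against itself, did not overlap, with 2570, 1565, 2332, 2044 and 1012 CPM in contaminated cells and 0.868 to 637 CPM (median 20.6) in unmarked cells. Tnfaip3, the A20 deubiquitinase that also restrains NF-kB, had 1034, 946, 1030, 267 and 12 CPM, against at most 75.4 CPM. Tlr7, an endosomal receptor for single-stranded RNA, had 38.3, 9.39, 56.5, 124.9 and 1.83 CPM, against at most 0.441 CPM.

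Interferon genes divided the contaminated cells. Ifnb1, which encodes interferon beta, had 468, 112.4, 152, 388 and 69.5 CPM in contaminated cells and at most 1.61 CPM in unmarked cells. Of the 15 genes that interferon induces, 10 passed the filter, 7 were called higher and 1 did not overlap, with a median log2 ratio of 3.13. That median was 4.07 without contaminated male cell 2, 3.95 without unmarked WT male cell 5 and 3.73 without unmarked WT male cell 8. Their summed level was 5727 and 4891 CPM in contaminated male cells 1 and 4 and 489, 241 and 258 CPM in male cells 2 and 3 and the female cell, against at most 323 CPM in unmarked cells. Rsad2, the antiviral viperin, had 2144, 1.32, 39.1, 1811 and 0.0874 CPM in contaminated cells, against at most 15.1 CPM in unmarked cells. Ifit3, which did not pass the filter, had 743 and 503 CPM in the same 2 male cells and 0 in the other 3. Ifit1, the member without overlap, had 1994, 168, 32.2, 919 and 31.5 CPM, against at most 4.46 CPM (log2 ratio 8.37, or 7.24 without contaminated male cell 1).

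**Figure D2:**
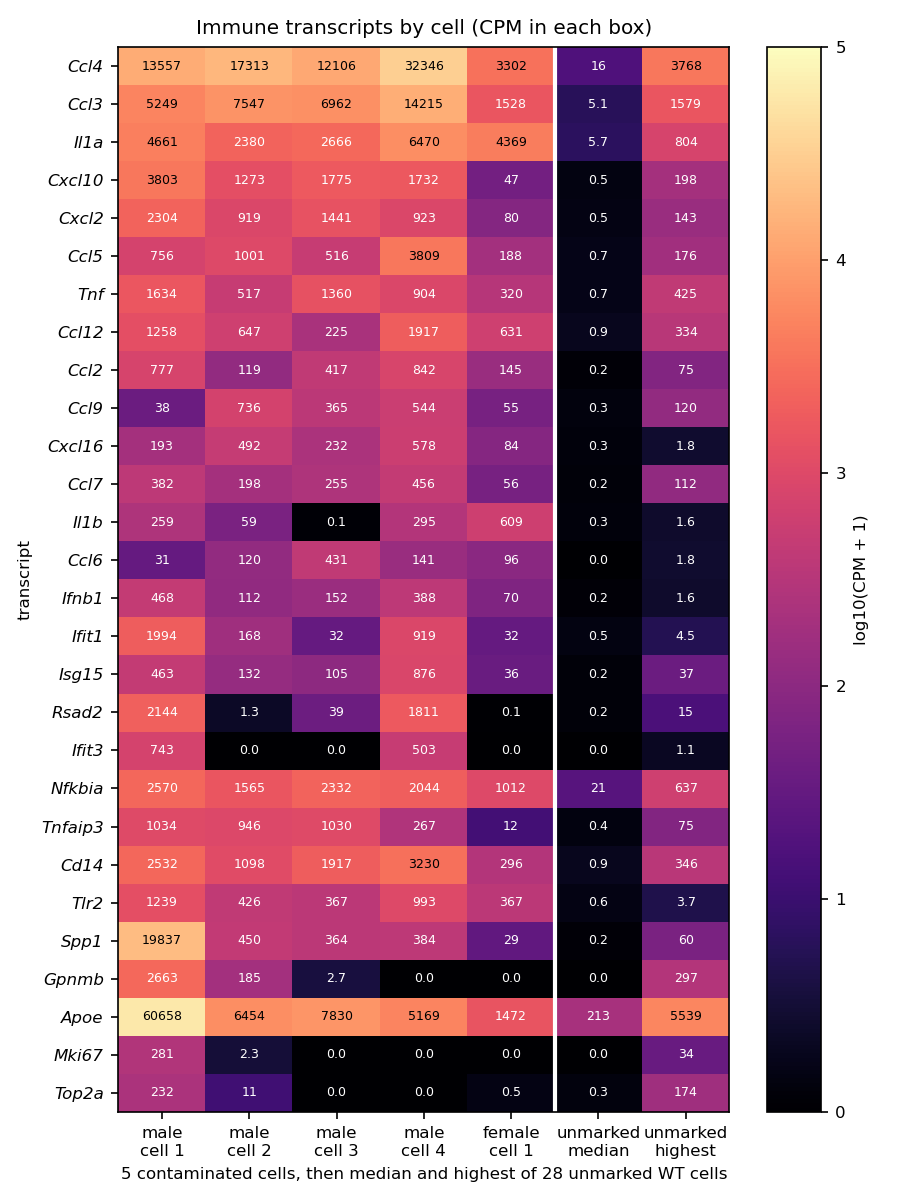
CPM of 28 immune and proliferation transcripts (rows) in the 5 contaminated cells and, right of the white line, the median and the highest of the 28 unmarked WT cells; colour is log10(CPM + 1). Ccl4 and Ccl3 are high in every contaminated cell, while Rsad2 and Ifit3 are high in male cells 1 and 4, and Spp1, Gpnmb, Mki67 and Top2a are highest in male cell 1.

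Lysosomal and phagocytic genes were higher as a group. Of 24 listed, 23 passed the filter, 19 were called higher, 0 lower, and 2 did not overlap, with a median log2 ratio of 3.74 (3.14 without contaminated male cell 1). Ctsb, a cysteine protease, had 10414, 5948, 6932, 5107 and 1046 CPM in contaminated cells, against 7.92 to 1107 CPM (median 423) in unmarked cells. Ctsd, an aspartic protease, had 17910 CPM in contaminated male cell 1, 795 to 3128 CPM in the other 4, and 0.332 to 2016 CPM (median 290) in unmarked cells. Lgmn, the asparagine protease legumain, did not overlap, with 983, 1025, 994, 1630 and 448 CPM in contaminated cells and at most 157 CPM in unmarked cells. Of 12 antigen presentation genes, 7 passed and 6 were called higher, with a median of 5.06. That median was 4.18 to 4.33 without contaminated male cell 1, 2 or 3 in turn, and 3.43 without the filter. B2m, the light chain of class I molecules, had 1113, 743, 855, 1618 and 147 CPM in contaminated cells, against at most 131.7 CPM in unmarked cells. H2-K1, a class I heavy chain, had 647, 645, 985 and 1029 CPM in the male cells and 0 in the female cell, against at most 210 CPM in unmarked cells. The class II genes H2-Aa, H2-Ab1 and H2-Eb1 did not pass the filter. H2-K1 and its class I relatives are close in sequence, so their reads may have been divided between paralogs.

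Contaminated male cell 1 stood apart by a set of transcripts for lipid handling. Of the 18 genes listed for the lipid and phagocyte state of neonatal microglia, 15 passed, 10 were called higher and 2 did not overlap, with a median of 4.75 (3.43 without that cell). The list summed to 98324 CPM in male cell 1, 16310, 18985 and 16179 CPM in male cells 2 to 4 and 4080 CPM in the female cell, against 674 to 6975 CPM (median 1888) in unmarked cells. Spp1, the secreted matrix protein osteopontin, had 19837 CPM in male cell 1, against 450, 364, 384 and 29.2 CPM in the other contaminated cells and at most 60.3 CPM in unmarked cells. Its log2 ratio of 9.63, the highest among the named genes, was 5.86 without male cell 1 and 10.34 without unmarked WT male cell 10. Gpnmb, a glycoprotein of lipid-laden macrophages, had 2663, 185, 2.71, 0 and 0 CPM, against at most 297 CPM in unmarked cells. Lpl and Fabp5, which neurons also express, lay below 0, at -0.73 and -0.90.

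The summed level of proliferation genes was highest in contaminated male cells 1 and 4, but Mki67 and Top2a were at 0 in male cell 4. The list summed to 1954, 266, 280, 1218 and 365 CPM in contaminated cells, against 1.74 to 811 CPM (median 86.4) in unmarked cells. Mki67, a marker of cycling cells that did not pass the filter, had 281 CPM in male cell 1, 2.31 CPM in male cell 2 and 0 in the other 3 contaminated cells, against at most 34.1 CPM in unmarked cells. Top2a, a topoisomerase of dividing cells, had 232, 10.5, 0, 0 and 0.524 CPM, against at most 174 CPM in unmarked cells. Of 12 proliferation genes, 10 passed and 7 were called higher, with a median of 2.24 that was 2.18 or more whichever contaminated cell was left out and 0.89 under median-of-ratios scaling. Without contaminated male cell 1 the log2 ratios of Mki67, Top2a and Rrm2 were -0.53, -1.67 and -1.76, below 0. The 12 oligodendrocyte lineage genes summed to 1456, 201, 140, 94.8 and 19.2 CPM in contaminated cells, against 0.787 to 1845 CPM (median 16.9) in unmarked cells, so that WT male cell 16 lay above contaminated male cell 1. Of these genes 3 passed the filter and 1, the transcription factor Olig1, was called higher, with a list median of 0.02 that was 1.87 without WT male cell 16. Olig1 had 1075 CPM in male cell 1, against at most 624 CPM in unmarked cells, and Cnp, a myelin enzyme, had a log2 ratio of -0.21. The part of these transcripts in the immune differences was not tested. Of 11 genes of border macrophages, the macrophages of meninges and vessels, 2 passed the filter, and the list summed to 486, 129.4, 49.4, 2.24 and 0.292 CPM in contaminated cells, against at most 223 CPM (median 3.43) in unmarked cells. Stab1, a scavenger receptor, was called higher, with 262, 60.7, 30.2, 0.132 and 0 CPM in contaminated cells and at most 32.8 CPM in unmarked cells (3.86, or 2.27 without contaminated male cell 1), and Dab2, an endocytic adaptor, was at 0.82. Among the members that did not pass, Mrc1 had 44.9, 2.47, 13.8, 1.45 and 0 CPM in contaminated cells, while Pf4 had 17.7 CPM in male cell 1 and 0 elsewhere, and Cd163 stayed at or under 3.46 CPM.

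Markers of other non-neuronal cells gave a mixed picture. Of 18 astrocyte genes, 13 passed and 3 were called higher, with a median of 0.28 that was -1.51 under TMM, -2.85 under median-of-ratios scaling and -0.81 in TPM. Without Apoe the astrocyte list summed to 1187, 643, 1082, 156 and 245 CPM in contaminated cells, within the 29.6 to 7012 CPM (median 382) of unmarked cells. Slc1a3, a glutamate transporter of astrocytes, had 105.5, 21.4, 283, 4.22 and 1.49 CPM in contaminated cells, against 0.131 to 2735 CPM (median 7.61) in unmarked cells. The 12 endothelial genes summed to 25.2, 83.3, 177, 78.6 and 14.5 CPM in contaminated cells, within the 11.3 to 468 CPM (median 59.9) of unmarked cells. The defining members Cldn5 and Cdh5, which did not pass the filter, were at 0 in the 4 male cells and at 0.0874 and 1.92 CPM in the female cell, while Slc2a1, a glucose transporter, had a log2 ratio of 1.24 (-0.54 without contaminated male cell 3, 2.56 without unmarked WT female cell 3). No mural cell gene and no neutrophil or lymphocyte gene passed the filter. Haemoglobin ran the other way: of 8 erythroid genes 5 passed and 4 were called lower, with a median of -4.57. The erythroid list summed to 40.4, 60.2, 98.1, 70.5 and 97.5 CPM in contaminated cells, all below the unmarked median of 465 CPM (range 2.75 to 13445).

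**Figure D3:**
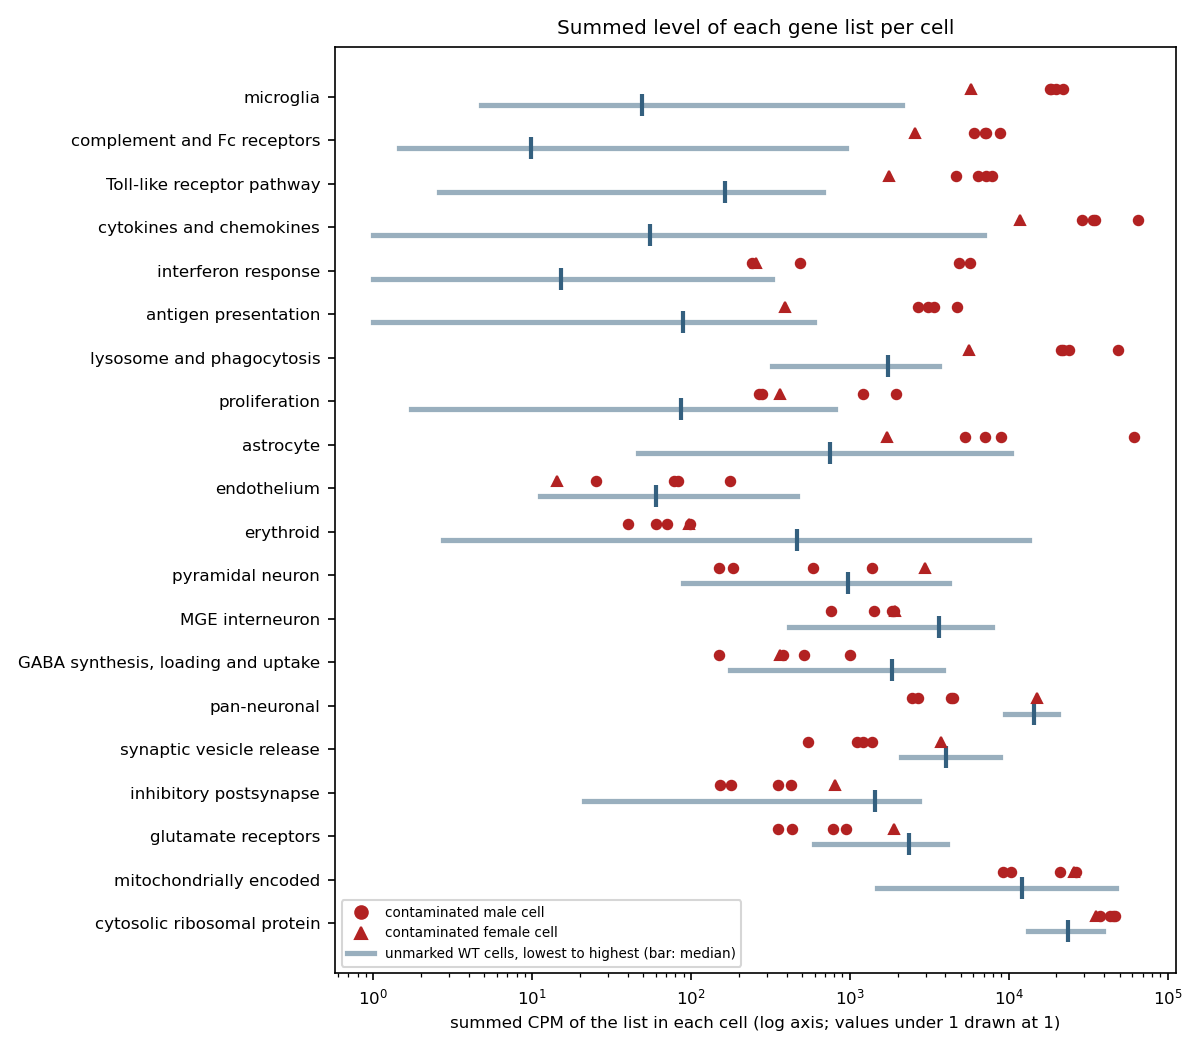
Summed CPM of 20 gene lists per cell on a log axis; red circles are the contaminated male cells, red triangles the contaminated female cell, and the blue line below them runs from the lowest to the highest unmarked WT cell with a bar at the median. The immune lists lie right of or at the upper end of the unmarked range, and the pan-neuronal sums of the 4 male cells lie left of it at 2466 to 4490 CPM while the female cell is at 15061 CPM.

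Summed pan-neuronal transcripts were lower in the contaminated male cells. Of 20 pan-neuronal genes listed, 19 are in the tables and passed, 3 were called lower and 0 higher, a count near the 11.7% of all genes called lower, with a median log2 ratio of -1.40 against -0.36 for all genes. The list summed to 2466, 2695, 4490 and 4335 CPM in the male cells, below the lowest unmarked cell, and to 15061 CPM in the female cell, against 9474 to 20315 CPM (median 14506) in unmarked cells. The median without the female cell was -2.07. For 15 of the 19 genes all 4 male cells lay below the unmarked median, and for 10 of the 19 the female cell lay above it. Rtn1, an abundant reticulon of neuronal endoplasmic reticulum, had 444, 529, 287 and 759 CPM in the male and 2213 CPM in the female contaminated cells, against 553 to 4704 CPM (median 2131) in unmarked cells. Stmn2, a microtubule regulator of growing axons, had 154, 220, 927, 696 and 1808 CPM, against 31.7 to 3185 CPM (median 1884). A level is a share of a library, so less neuronal RNA and more RNA from elsewhere cannot be told apart.

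MGE interneuron genes were lower too, with less separation. Of 25 listed, 24 passed, 8 were called lower and 0 higher, and none was free of overlap, with a median of -1.10 (-1.77 without contaminated male cell 1). The list summed to 1836, 1885, 1413, 767 and 1919 CPM in contaminated cells, all below the unmarked median of 3662 CPM (range 412 to 7808), for a log2 ratio of -1.28. Nkx2-1, the selector gene behind the Cre, was at or under 0.821 CPM in all 5 contaminated cells, and 7 of 28 unmarked cells carried it. Sst, which encodes somatostatin, was carried by contaminated male cell 3 at 266 CPM and the female cell at 494 CPM, and was under 1 CPM in the other 3, against 0.193 to 609 CPM (median 2.59) in unmarked cells. Npy, which encodes neuropeptide Y, had 23.1, 462, 160, 5.65 and 735 CPM in contaminated cells, against a median of 242 CPM in unmarked cells. All 6 genes for GABA synthesis, loading and uptake lay below 0 and 3 were called lower, with a median of -1.56 (-2.22 without the female cell).

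The contaminated female cell combined a pan-neuronal level near the unmarked median with the lowest Lhx6 of the 5 contaminated cells. Its GABA list came to 2.42% of its pan-neuronal list, against 15.4, 37.5, 3.34 and 11.9% in the contaminated male cells and 1.70 to 26.3% (median 12.4%) in unmarked cells. Genes of pyramidal neurons summed to 183, 151, 1382 and 583 CPM in the male and 2981 CPM in the female contaminated cells, against 88.7 to 4199 CPM (median 980) in unmarked cells. As a share of the pan-neuronal list they came to 7.43, 5.59, 30.8 and 13.4% in the male and 19.8% in the female contaminated cells. Male cell 3 thus lay above the female cell by this share, and unmarked cells ran from 0.547 to 35.8% (median 6.55%). Neurod6, a transcription factor of the excitatory pyramidal neurons, had 395 CPM in the female cell and 15.1, 4.2, 150 and 0.508 CPM in the male cells, against a median of 46.1 CPM in unmarked cells. Of 10 genes of interneurons from the caudal ganglionic eminence, 7 passed the filter, 1 was called higher and 2 lower. Prox1, a transcription factor of that lineage, was the higher one, with 55.4, 28.3, 31.6, 0 and 0 CPM in contaminated cells and at most 0.997 CPM in unmarked cells. Cck, which encodes cholecystokinin and is on that list, had 1479 CPM in the female cell, against 3.59 to 228 CPM in the male cells and 5.64 to 1785 CPM (median 493) in unmarked cells. The Y-linked transcripts Ddx3y, Uty, Eif2s3y and Kdm5d summed to 34.6 to 254 CPM in the contaminated male cells and to 1.21 CPM in the female cell. Among unmarked cells this sum did not separate the sexes. It ran from 0.193 to 101.4 CPM in female cells and up to 1034 CPM in male cells. The lowest unmarked male cell lay close to the contaminated female cell.

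Synaptic lists had medians below that of all genes. Of 19 inhibitory postsynapse genes, 18 passed and 7 were called lower, with a median of -1.54 (-2.23 without the female cell). Gphn, the gephyrin scaffold that the series' mutation alters, had 32.8, 6.26, 23.3, 3.29 and 10 CPM in contaminated cells, against 0.297 to 768 CPM (median 40.2) in unmarked cells, a log2 ratio of -2.93. All 15 glutamate receptor genes lay below 0 and 6 were called lower, with a median of -1.95. Gria1, an AMPA receptor subunit, had 21.7, 28.5, 17.8, 27.9 and 206 CPM, against 4.94 to 1841 CPM (median 423) in unmarked cells. Of 16 genes for vesicle release, 15 passed and 3 were called lower, not far from the 11.7% of all genes, while the 4 male sums of 547 to 1382 CPM lay below the lowest unmarked sum of 2095 CPM. The median for vesicle release was -1.50, or -2.19 without the female cell. Of 16 sodium and potassium channel genes, 15 passed and 3 were called lower, likewise not far from 11.7%, with a median of -1.43. The medians of the MGE, GABA, pan-neuronal, inhibitory postsynapse, glutamate receptor, channel and vesicle release lists stayed below 0 under every alternative run. That is not always below all genes. For the female cell alone the median of all genes was -0.18. The pan-neuronal median was then -0.10, channels -0.19, vesicle release -0.33, inhibitory postsynapse -0.51, glutamate receptors -1.20, GABA -2.71 and MGE -3.60. For that cell the pyramidal neuron median of -0.39 became 1.67 and the caudal ganglionic eminence median of -0.48 became 0.95.

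**Figure D4:**
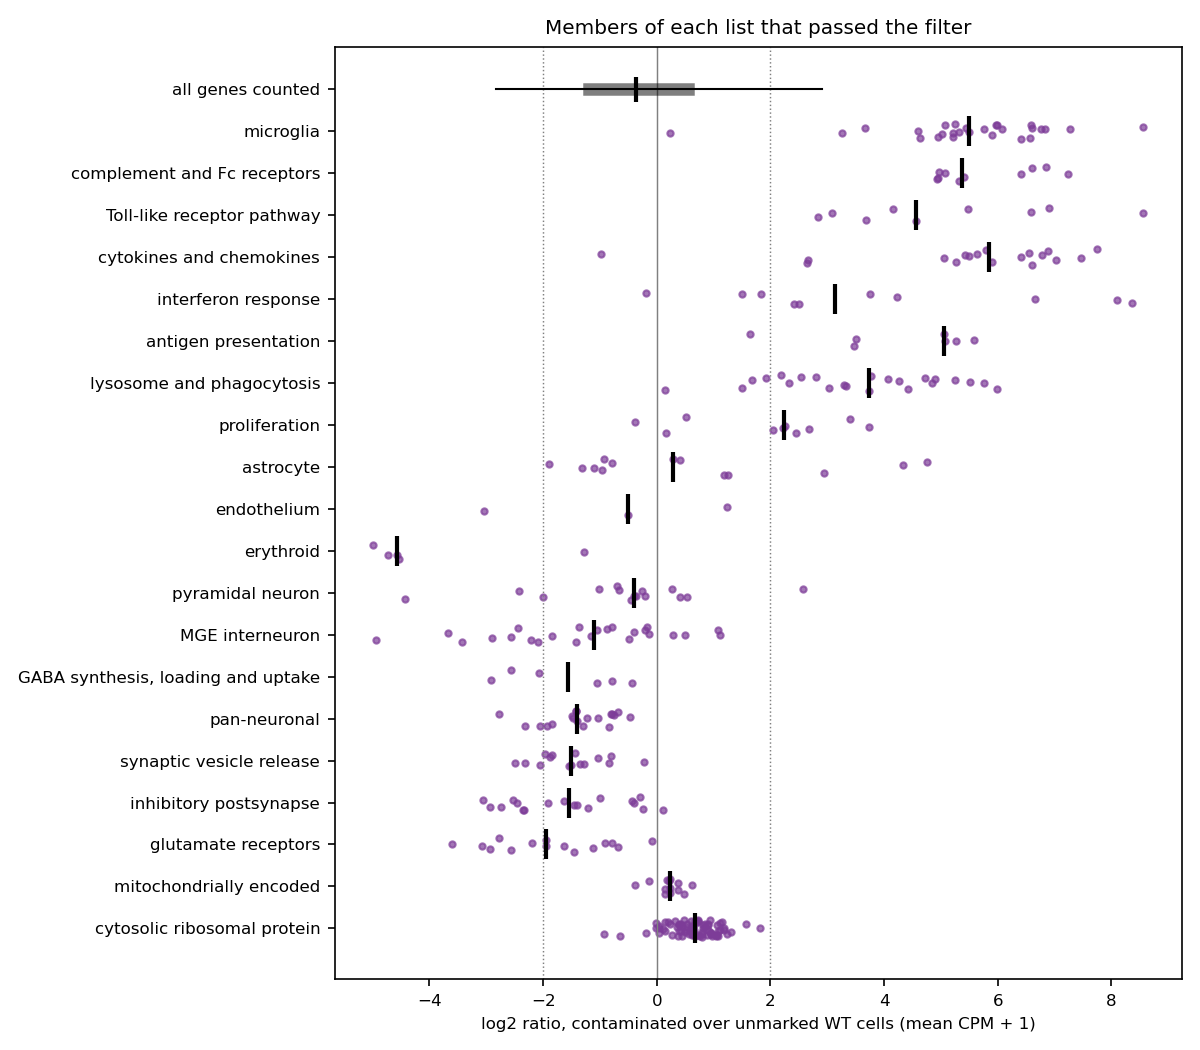
Log2 ratio of contaminated over unmarked WT cells for every list member that passed the filter (points), with each list's median (bar); the top row gives all 11388 genes as 5th to 95th percentile (line), 25th to 75th percentile (block) and median, and dotted lines mark -2 and 2. Immune lists centre at 3.13 to 5.85, the MGE, GABA, pan-neuronal and synaptic lists at -1.95 to -1.10, and the ribosomal and mitochondrial lists at 0.67 and 0.24.

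Housekeeping lists had small ratios. Of 83 ribosomal protein genes, 78 passed, 73 lay above 0 and none was called, and 59 lay above the unmarked median in all 5 contaminated cells. Their median of 0.67, against -0.36 for all genes, was -1.20 under median-of-ratios scaling, where that of all genes was -2.07. The ribosomal list summed to 37537, 45162, 43482, 46946 and 35478 CPM in contaminated cells, against 13154 to 39117 CPM (median 23724) in unmarked cells. The 13 mitochondrially encoded genes had a median of 0.24, which was -0.45 under TMM and -1.85 under median-of-ratios scaling. Of 17 immediate early genes, 16 passed: Junb, Atf3 and Ier3 were called higher, Egr3 lower, and the median of -0.42 was 0.75 in males alone and 0.30 without unmarked WT female cell 3. Atf3, a stress-induced transcription factor, had 740, 616, 1136, 441 and 117.3 CPM in contaminated cells, against a median of 1.45 CPM in unmarked cells and 1120 CPM in the highest of them.

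Of the 15 highest named genes, 7 belong to the immune lists. For 12 of the 15 the groups did not overlap, against 0.755% of all genes, and 9 of the 15 were carried by 0 unmarked cells. The 15 were chosen by their ratios in these same cells, so these counts follow in part from that choice. Slfn2, an interferon-inducible Schlafen gene, had 214, 420, 659, 1518 and 53.6 CPM in contaminated cells, against at most 5.12 CPM in unmarked cells (log2 ratio 8.19, or 7.43 without contaminated male cell 4). Pld4, an endolysosomal nuclease, had 373, 365, 352, 393 and 105.7 CPM, against at most 3 CPM. Crybb1, a crystallin gene that marks perinatal microglia, had 32.2, 795, 755, 326 and 294 CPM, against at most 25.4 CPM (7.46, or 8.09 without unmarked WT male cell 6). Igsf6, Gem, Tcn2 and Tnfrsf12a had log2 ratios of 7.62, 7.55, 7.37 and 7.29. Across the whole table, 24 genes (0.211%) were carried by all 5 contaminated cells and by 0 of 28 unmarked cells, a criterion set after the values were seen. They include Ncf1, a subunit of the phagocyte NADPH oxidase, Vav1 and Fermt3, a signalling and an integrin-binding protein of blood cells, and the myeloid surface proteins Cd33, Cd86 and Lilrb4a. Ftl1, the ferritin light chain, which neurons also express, had 9657, 19874, 26172, 35711 and 9330 CPM in contaminated cells and 1061 to 7335 CPM (median 3008) in unmarked cells, without overlap.

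The 15 lowest named genes overlapped between the groups without exception, for which a single low unmarked cell was enough. Ppargc1a, a coactivator of mitochondrial biogenesis, had 4.67, 1.15, 0.274, 3.29 and 0.175 CPM in contaminated cells, against 0.134 to 530 CPM (median 17.6) in unmarked cells. Its log2 ratio was -4.96, against -4.99 for the haemoglobin gene Hba-a1, the lowest of the 15. Camta2, a calmodulin-binding transcription activator, had 1.8, 8.73, 0.411, 0.526 and 2.18 CPM, against 0.217 to 661 CPM (median 25.8) in unmarked cells (-4.62, or -5.37 without contaminated male cell 2). Slc6a17, a vesicular amino acid transporter of neurons, had 1.11, 8.54, 12.5, 0.132 and 1.83 CPM, against a median of 35.7 CPM. Together with Ccdc36, Ppargc1a and Camta2 were the 3 genes (0.0263%) carried by 0 contaminated cells and by 14 or more unmarked cells, a criterion also set after the values were seen. For 10 of the 15 genes, which were chosen by their ratios in these same cells, all 5 contaminated cells lay below the unmarked median. Acsl6, Mrpl24, Gopc and Tmem184c were each carried by a single contaminated cell, male cell 3, and without it their log2 ratios were -5.74, -5.61, -5.20 and -4.98, against -3.88, -3.82, -3.76 and -3.66 with it. Single unmarked cells weighed on them too: the ratios were -3.28 and -2.86 for Acsl6 and Mrpl24 without WT female cell 7, and -3.15 and -3.06 for Gopc and Tmem184c without WT male cell 16.

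Immune transcripts were not confined to the marked cells. The contaminated cells carried 22 to 26 of the 27 microglia list members each; of the 28 unmarked cells, 5 carried 5 or more members and 3 carried 10 or more. WT male cell 6 summed to 2125 CPM over the microglia list and 6981 CPM over cytokines and chemokines, WT male cell 10 to 2099 and 4503 CPM, and WT female cell 6 to 1417 and 3623 CPM. The ratio of the cytokine to the microglia sum was 1.78, 1.83, 1.59, 2.96 and 2.01 in the contaminated cells and 3.29, 2.15 and 2.56 in these 3 unmarked cells. All 3 unmarked cells lay above the unmarked median for the pan-neuronal list, with sums of 17326, 16734 and 15680 CPM, Gad1 at 524, 797 and 506 CPM, and Lhx6 at 25, 571 and 193 CPM. Tlr2 reached 2.31, 3.75 and 0.316 CPM in them, Il1b at most 0.536 CPM and Ifnb1 at most 1.61 CPM. The contaminated male cells bear the consecutive title numbers 83 to 86, WT male cell 6 bears 87 and WT male cell 10 bears 91. The contaminated female cell and WT female cell 6 bear numbers outside the run from 83 to 91. WT male cells 7, 8 and 9, numbered between cells 6 and 10, had microglia sums of 73.6, 76.8 and 606 CPM. The labels name no batch, and the part of sampling order was not tested.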

How the data were processed

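Single neurons were patched in acute slices and sequenced from Nextera XT libraries, per the labels' protocols. The submitters' processing notes name kallisto and GRCm38; their versions, how cells were filtered for quality and how contamination was judged are not given in the sources used here. The authors deposited expected counts per gene before and after a quality filter (35825 genes, identical for shared cells, largest difference 0) and a TPM table whose columns sum to 1e+06. The table after the filter was used. CPM is a count divided by its column sum, times 1e+06. Columns without a labelled sample were not used (44 after and 52 before the filter).

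Group values are means over cells, with a pseudocount of 1 CPM; counted genes reach 10 CPM in 3 or more of 33 cells, and a call needs a log2 ratio of 2 or more or -2 or less, a 4-fold difference of means. The calls just around the threshold were Acbd3 at 2.001 and Haus4 at 2.002 inside it, and Mfsd10 at 1.996 and Pdk3 at 1.997 outside it. Named genes are the 6 markers, the 15 highest ratios among genes at 10 CPM in 4 or more contaminated cells, the 15 lowest among genes at 10 CPM in 14 or more unmarked cells, with medians in the same direction, and members of the lists; Ftl1, Ncf1, Vav1, Fermt3, Cd33, Cd86 and Lilrb4a were chosen after their values were seen. The members, lists and comparisons were chosen with earlier results of these data known. No test was made, because cells are not replicates.

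Python 3.11.15, numpy 2.4.6, pandas 2.3.3, scipy 1.17.1, and R 4.3.3 with edgeR 4.0.16 (TMM) and DESeq2 1.42.0 (median-of-ratios) were used, the last 2 for scaling factors in alternatives only. Depth is counts per cell as given in the text. On simulated counts for this comparison, 9293 genes were counted. Of these, 100 of 100 genes made 8-fold higher and 100 of 100 made 8-fold lower were called, and 0 unchanged genes were. Within a group the simulated cells differed by counting error alone, without the spread between cells seen in the data. The check therefore covers the arithmetic of the calls and gives no rate of false calls for these cells.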

Additional observations from a re-analysis of the deposited data

Results flagged for a closer look

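Among 68 lists and named genes screened, a single contaminated cell stood far from the other 4 in 22, by a gap of over 0.71 of the range of the 5 cells; chance sets apart about 1 in 20 groups by this measure where values are normally distributed, and its rate for CPM was not measured. Contaminated male cell 1 was the high cell for the lipid and phagocyte list at 98324 CPM, astrocyte at 61845 CPM, oligodendrocyte lineage at 1456 CPM, border macrophage at 486 CPM, Apoe at 60658 CPM and Spp1 at 19837 CPM. These entries are not separate, since Apoe is on the lipid and astrocyte lists and Spp1 on the lipid list. Without Apoe the astrocyte list in male cell 1 summed to 1187 CPM, beside 1082 CPM in male cell 3. Contaminated male cell 2 was the high cell for the meningeal fibroblast list at 24.4 CPM, neutrophil and lymphocyte at 13.1 CPM, Cajal-Retzius at 26.9 CPM and Camta2 at 8.73 CPM. Contaminated male cell 3 was the high cell for the mural list at 62.1 CPM, Acsl6 at 29.4 CPM, Mrpl24 at 29.8 CPM, Gopc at 17.4 CPM and Tmem184c at 23.1 CPM, and male cell 4 for Spock3 at 44.8 CPM. The contaminated female cell was the low cell for the microglia list at 5809 CPM and Pld4 at 105.7 CPM. It was the high cell for the list for the caudal ganglionic eminence (CGE), another source of interneurons, at 1628 CPM, pan-neuronal at 15061 CPM, vesicle release at 3728 CPM and Ccdc36 at 6.72 CPM.

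In 4 cases the contaminated female cell lay on one side of the unmarked female median and all 4 contaminated male cells on the other side of the unmarked male median. The female cell was at 15061 CPM for the pan-neuronal list (unmarked female median 12707, male median 15238 CPM) and at 1628 CPM for the CGE list (531 and 584 CPM). It was at 208 CPM for the radial glia list (354 and 409 CPM) and at 2.18 CPM for Camta2 (0.650 and 68.2 CPM). These differences between the sexes were not tested.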

How the results depend on the processing

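No paired analysis was possible because the labels give neither animals nor replicate numbers shared between groups. The 968 higher genes became 354 under median-of-ratios scaling, 509 with a pseudocount of 10 CPM, 1645 without the filter, 392 with the filter at 7 cells and 421 for the female cell alone. The 1332 lower genes became 2293 under TMM, 5111 under median-of-ratios scaling, 304 with a pseudocount of 10 CPM and 747 with the filter at 7 cells. The 86 higher genes without overlap became 36 under median-of-ratios scaling, 42 with the filter at 7 cells, 253 for males, 432 for the female cell alone and 37 against unmarked cells of both genotypes; the 0 lower ones became 5 for males and 200 for the female cell. The log2 ratio of the microglia sum, 5.92, became 4.64 under median-of-ratios scaling and 4.92 for the female cell; that of the MGE sum, -1.28, became -1.98 under TMM and -3.50 under median-of-ratios scaling. The cause of these shifts was not tested.

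Leaving out each contaminated cell gave 854 to 1003 higher and 1293 to 1834 lower genes, 88 to 199 higher and 0 to 3 lower without overlap (199, 3 and 1834 without the female cell), 5.80 to 6.13 for the microglia sum and -1.36 to -1.11 for the MGE sum. Leaving out each unmarked cell gave 946 to 983, 1275 to 1340, 86 or more, 0, 5.86 to 6.32 and -1.33 to -1.22.

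Signs turned as follows. For the female cell alone the log2 ratio was -0.021 for Mrc1, -2.30 for Stab1, -0.39 for Ms4a7, -4.13 for H2-K1, -0.39 for Cd74, -3.20 for Ifit2, -0.042 for Ifit3, -0.69 for Rsad2, -6.27 for Vim, -3.09 for Top2a, -0.99 for Pdgfra, -4.55 for Olig1, -0.11 for Prox1 and 0.48 for Gabra5. Without contaminated male cell 1 it was -0.36 for Ms4a7, -0.53 for Mki67, -1.67 for Top2a, -1.76 for Rrm2, -0.53 for Pdgfra and -0.23 for Olig2. Median-of-ratios scaling gave -0.077 for Vim and -0.87 for Olig1. Cspg4 was 0.12 without unmarked WT male cell 3, Vip 0.054 in males and 0.10 without unmarked WT female cell 9, and the Cajal-Retzius median 0.11 without the filter. Over all cells left out in turn, the highest values were 3.25 for Ms4a7, 5.77 for Mki67, 3.06 for Top2a, 4.34 for Rrm2, 3.90 for Pdgfra and 5.46 for Olig2, and the lowest were -2.69 for Cspg4 and -3.41 for Vip. Of 31 list medians, 11 changed sign under some alternative. Of 98 named genes past a 4-fold difference, 22 changed sign or reached 0. Among these 22, Pf4, Nes and Sox10 fell to 0 and not below it. For the female cell alone the medians were 4.11 for microglia, 4.72 for cytokines, 2.28 for antigen presentation, 1.18 for interferon response, 1.07 for lysosome and 0.62 for the lipid list; under median-of-ratios scaling those of microglia, cytokines, lysosome and lipid were 4.30, 4.49, 2.22 and 2.13. Genes detected in 1 or 2 contaminated cells rest on those cells, and 5 cells from an unknown number of animals limit every value.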
